A study of Mus musculus with 8 samples.

Results

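Trimethylation of lysine 4 on histone H3 (H3K4me3) was mapped across the genome of resting D1 cells, a mouse dendritic cell (DC) line, and the regions described here are all 15799 peaks called when the ChIP library of non-treated D1 cells was set against its own input library. The 4 peak lists of the series hold 54987 peaks together. No peak was selected by its signal, and the libraries of stimulated cells were not compared.

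H3K4me3 is placed on nucleosomes around transcription start sites (TSSs) by the SETD1 and MLL methyltransferase complexes and is removed by demethylases of the KDM5 family. It is found at starts that are in use, and also at many starts rich in CpG dinucleotides that are poised or weakly used, where CXXC1 and related proteins bind unmethylated CpG and bring in the methyltransferases. DCs take up antigen and present it to T cells on major histocompatibility complex (MHC) molecules, and they depend on transcription factors such as PU.1 (encoded by Spi1), IRF4, IRF8 and ID2.

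D1 is a long-term line grown from C57BL/6 mouse spleen that stays immature and depends on granulocyte-macrophage colony-stimulating factor (GM-CSF), which was supplied as conditioned medium of NIH3T3 R1 fibroblasts. The cells described here received no treatment, neither the dectin-1 ligand curdlan nor the calcineurin inhibitor FK506 that were given to other samples of the series. The study's methods describe D1 cells carrying a V5-tagged NFATc2 transgene for its ChIP experiments, whereas the labels of these libraries name only D1, so whether these cells carried the transgene is not given. There was 1 ChIP library of 16662316 tags and 1 input library of 12085435 tags, so 1 tag in a peak corresponds to 0.0600 tags per 1000000 ChIP tags (RPM, the unit used below), no value has a replicate error, and no difference was tested. Intervals on shares are 95% Wilson intervals and cover counting error only. As a library pools many cells, a weak peak in all cells and a strong peak in a part of them cannot be told apart.

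A protein-coding gene was called marked when a peak lay within 1 kb of the start of any of its protein-coding transcripts, and its value is that of the peak with the most tags. A gene without a peak is below the calling threshold, which is not the same as free of the mark. Of 22359 protein-coding genes on chromosomes 1 to 19, X and Y of the mm9 build, 10857 were marked, a background of 48.6% (47.9 to 49.2) against which the gene groups are read. As a limited check on the cells, 3 genes of the DC lineage were read. Itgax, the CD11c integrin chain, carried 2553 tags (153 RPM) at chr7:135270918-135278213. Spi1, encoding PU.1, carried 2821 tags (169 RPM) at chr2:90936071-90943533, and Cd74, the invariant chain of MHC class II, carried 3895 tags (234 RPM). All 3 were thus well above the median marked gene, at 43.6 RPM. The macrophage genes Csf1r, Emr1 and Fcgr1 were above it too, at 136, 115 and 102 RPM, and 9 of 28 DC surface and antigen presentation genes were unmarked. The 3 genes thus do not tell DCs from macrophages.

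Chromosome 19 and the distal part of chromosome 5 stood apart with a high tag density. The median promoter peak held 279 tags per kb on chromosome 5 and 294 on chromosome 19, against medians of 197 to 249 on the other 17 autosomes and 169 on X. On chromosome 5 this came from the region beyond 120 Mb, where 290 promoter peaks had a median of 378 tags per kb, against 241 for the 437 peaks before it. The fold over input went the other way, at a median of 30.7 beyond 120 Mb and 41.8 before it. Other regions were low. In windows of 20 Mb, the 138 promoter peaks from 140 Mb on chromosome 4 had medians of 139 tags per kb and 15.8 RPM. The windows from 140 Mb on chromosome 1 had medians of 160 to 171 tags per kb. RPM values on chromosome 19, on X and in these parts of chromosomes 1, 4 and 5 carry this limit. The DNA copy number of the line was not tested.

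Promoter sequences of marked and unmarked genes are shown because these groups differed in the base composition of the start. Each is the 200 bases that precede a start, 5′ to 3′ on the gene's strand, in the NCBIM37 (mm9) genome, with CG dinucleotides in capitals, as is the 8-base string GAGGAAGT or its reverse complement ACTTCCTC, a form of the site bound by PU.1. Polr2a (chr11:69572140-69572339, minus strand), encoding the largest subunit of RNA polymerase II, has a CpG-rich, marked start with 19 CG. Sox2 (chr3:34548727-34548926, plus strand), a regulator of pluripotent and neural progenitor cells, has 22 CG and was unmarked. Spi1 (chr2:90936053-90936252, plus strand), Itgax (chr7:135272861-135273060, plus strand) and Csf2rb (chr15:78156220-78156419, plus strand), the GM-CSF receptor beta chain, are marked with few CG. Xcr1 (chr9:123771247-123771446, minus strand), a chemokine receptor of cross-presenting DCs, is unmarked with 1 CG.
Polr2a: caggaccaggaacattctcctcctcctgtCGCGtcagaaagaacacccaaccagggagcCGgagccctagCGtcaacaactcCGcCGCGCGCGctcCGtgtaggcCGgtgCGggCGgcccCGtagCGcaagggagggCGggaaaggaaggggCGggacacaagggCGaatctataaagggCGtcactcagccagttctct
Sox2: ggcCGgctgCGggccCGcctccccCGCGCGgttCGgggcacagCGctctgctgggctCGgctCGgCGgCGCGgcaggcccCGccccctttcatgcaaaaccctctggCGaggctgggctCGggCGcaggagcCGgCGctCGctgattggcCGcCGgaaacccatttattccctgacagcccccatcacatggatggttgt
Spi1: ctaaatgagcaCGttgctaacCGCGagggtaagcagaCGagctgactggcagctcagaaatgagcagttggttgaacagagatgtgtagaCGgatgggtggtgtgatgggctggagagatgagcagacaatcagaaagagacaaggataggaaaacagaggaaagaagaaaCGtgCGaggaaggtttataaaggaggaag
Itgax: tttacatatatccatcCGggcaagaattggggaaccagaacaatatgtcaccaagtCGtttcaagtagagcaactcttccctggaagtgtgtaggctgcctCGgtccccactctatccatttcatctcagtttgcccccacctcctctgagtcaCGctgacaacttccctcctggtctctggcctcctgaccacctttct
Csf2rb: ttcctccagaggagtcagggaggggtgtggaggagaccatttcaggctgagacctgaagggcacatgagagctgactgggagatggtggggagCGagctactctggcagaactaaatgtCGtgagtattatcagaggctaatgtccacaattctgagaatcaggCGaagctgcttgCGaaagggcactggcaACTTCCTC
Xcr1: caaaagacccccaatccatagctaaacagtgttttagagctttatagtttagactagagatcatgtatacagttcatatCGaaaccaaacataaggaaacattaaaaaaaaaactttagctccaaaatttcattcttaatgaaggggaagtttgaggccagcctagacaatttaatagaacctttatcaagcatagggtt
The string ACTTCCTC in Csf2rb is the only match to the 8-base string in these 6 windows. The Itgax window has 4 CG, as many as Csf2rb, and Spi1 has 7.

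Most of the mark sat at known promoters. Of the 15799 peaks, 11007 (69.7%, 68.9 to 70.4) lay within 1 kb of a protein-coding TSS and held 86.6% of all tags in peaks. A further 579 peaks (3.66%) lay only at the start of a non-coding or other annotated transcript, and 4213 (26.7%, 26.0 to 27.4) were away from every annotated TSS. Promoter peaks were longer and denser, with a median length of 2687 bp, 37.5 RPM and a 41.7-fold enrichment over input. Peaks at other annotated starts had medians of 2046 bp, 14.9 RPM and 23.5-fold, and peaks away from a TSS had medians of 1714 bp, 8.76 RPM and 14.6-fold. All peaks together covered 42.1 Mb, 1.59% of the assembled chromosomes, and took 57.9% of the ChIP tags.

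At promoters the mark extended mainly into the gene. The summit, the base with the most overlapping fragments, lay downstream of the nearest protein-coding TSS in 8451 of 11007 promoter peaks (76.8%), at a median of 239 bp and with quartiles of 50 and 496 bp. Summits were fewer just before the start. The 100 bp just upstream of the TSS held 274 summits and the 100 bp before those held 255, between 543 summits from 200 to 300 bp upstream and 1657 from 200 to 300 bp downstream. Active starts are known to be depleted of nucleosomes there. Among 2845 peaks at a single gene with a single TSS, the interval reached a median of 970 bp upstream and 1739 bp downstream, and 87.6% reached farther downstream.

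**Figure D1:**
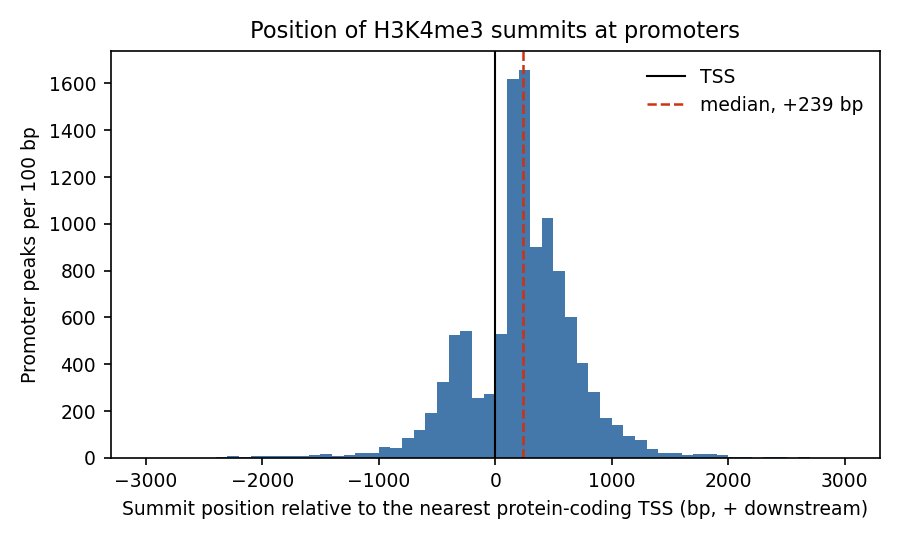
Number of promoter peaks per 100 bp (vertical axis) by the position of the summit relative to the nearest protein-coding TSS (horizontal axis, bp, positive values downstream), with the TSS as a solid line and the median at 239 bp as a dashed line. A tall group of summits lies downstream, a smaller group lies upstream with 543 summits between 200 and 300 bp, and few summits lie just upstream of the TSS.

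Many promoter peaks served more than 1 gene or only some of a gene's starts. A single protein-coding gene lay on 9579 promoter peaks (87.0%), with medians of 2594 bp and 35.3 RPM, and 2 or more genes lay on 1428 (13%), with medians of 3266 bp and 56.1 RPM. For genes that share a peak, such as Cd80 and its neighbour Adprh, the tags cannot be divided between them. Of the 10455 genes with more than 1 annotated TSS, 6496 were marked, 4011 at every TSS and 2485 at some of them. Of all marked genes, 93.6% had a TSS inside the peak. The 1 kb limit divided few genes, since 15 marked genes had their nearest peak 900 to 1000 bp away and 21 unmarked genes had it 1000 to 1100 bp away. Of the 11502 unmarked genes, 10238 had no peak within 10 kb, and the median distance to a peak was 85.2 kb.

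Base composition divided marked from unmarked promoters. With the observed-to-expected CpG ratio in the 500 bp on each side of the TSS, 11078 genes were CpG-rich (ratio of 0.6 or more) and 8757 of these (79.0%, 78.3 to 79.8) were marked. Of 4741 genes of middle ratio 1594 (33.6%, 32.3 to 35.0) were marked, and of 6540 CpG-poor genes (ratio under 0.3) 506 (7.74%, 7.11 to 8.41). In steps of 0.1 the share rose from 3.49% below 0.1 to 53.2% between 0.5 and 0.6 and to 87.9% at 1 and above. CpG-rich promoters made up 80.7% of the marked genes and 20.2% of the unmarked genes.

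**Figure D2:**
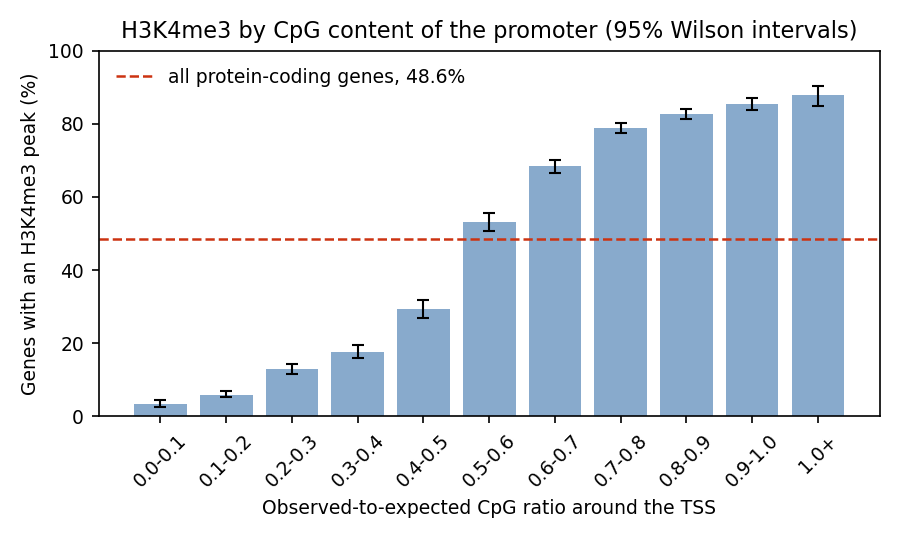
Share of protein-coding genes with an H3K4me3 peak within 1 kb of a TSS (vertical axis, percent, with 95% Wilson intervals) by the observed-to-expected CpG ratio around the TSS (horizontal axis, steps of 0.1), with the share of all genes, 48.6%, as a dashed line. The share is 3.49% in the lowest step and 87.9% in the highest, and it crosses the share of all genes between the steps 0.4 to 0.5 and 0.5 to 0.6.

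CpG-poor genes that were marked did not have small peaks. Their median was 42.0 RPM and 3188 bp, against 45.3 RPM and 2950 bp for CpG-rich marked genes, although the fold over input was lower, at 34.6 against 44.5. At the 173 CpG-poor starts on a peak of their own with a single TSS, the mark reached a median of 2474 bp downstream, against 1765.5 bp at 2154 CpG-rich starts, and 802 against 1021.5 bp upstream. Of the 506 genes, 415 were alone on their peak. Of those with the most tags, C130050O18Rik came highest at 353 RPM, but it lies in the dense part of chromosome 5. It was followed by Cd80, the co-stimulatory ligand of CD28, at 281 RPM on a peak shared with Adprh, and by Abi3 and Gngt2 at 238 on a shared peak. Cd74, the invariant chain, had 234 and Hcst and Tyrobp, which encode the receptor adaptors DAP10 and DAP12, had 217 on a peak shared with Nfkbid. Clec4n, encoding the fungal receptor dectin-2, had 210.5 RPM. AI504432 had 207 on a peak shared with Kcna3, Gpr82 had 201 and Pilra, an inhibitory receptor gene beyond 120 Mb on chromosome 5, had 196. Il21r, the interleukin-21 receptor, had 195 and H2-Eb1, an MHC class II beta chain, had 194.

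Short sequence strings differed between marked and unmarked promoters of the CpG-poor class. Each string was searched on both strands from 250 bases before to 50 bases after the start, none of the 4 strings contains another, and a match is not evidence of binding. GAGGAAGT was found in 3.04% of all promoters, in 71 of 506 CpG-poor marked promoters (14.0%, 11.3 to 17.3) and in 255 of 6034 CpG-poor unmarked promoters (4.23%, 3.75 to 4.76). TATAAA, a form of the TATA box, went the other way, with 13.6% of CpG-poor marked and 26.8% of CpG-poor unmarked promoters against 12.8% of all. GGGCGG, the GC box bound by SP1, was in 18.6% of CpG-poor marked and 6.41% of CpG-poor unmarked promoters, against 46.8% of all. CCAAT, the site of NF-Y, was in 32.2% and 39.3%, against 36.6% of all. The CpG-poor class includes 1061 olfactory receptor genes, 5 of them marked, and 318 vomeronasal receptor genes, none of them marked. The intervals take such family members as independent, and the strings were not counted without them. Within CpG-rich promoters the marked and unmarked shares were 73.9% and 71.4% for GGGCGG, 37.1% and 28.0% for CCAAT, 5.13% and 6.55% for TATAAA, and 2.52% and 1.16% for GAGGAAGT.

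Transcription factors of DCs and myeloid cells were nearly all marked, 17 of 18 (94.4%, 74.2 to 99), against 48.6% of all protein-coding genes. Of the 18, 15 have CpG-rich starts and all 15 were marked, against 79.0% of all CpG-rich genes. The marked members had a median of 60.3 RPM and 4637 bp against 43.6 RPM and 2903 bp for all marked genes. Runx1, a regulator of blood stem cells and myeloid cells, had 281 RPM, and Id2, an inhibitor of E proteins needed for several DC subsets, had 280 at chr12:25776811-25786664. Ikzf1, encoding Ikaros, had 223, Runx3 had 174, Spi1 had 169 and Irf4, a factor of the cDC2 subset, had 168 at chr13:30840257-30846774. These 6 genes stood well above Bcl6 at 107. Zbtb46, a factor specific to conventional DCs, had 60.3 RPM and Zeb2 had 48.4. Irf8 and Batf3, which are required for the cross-presenting cDC1 subset, had 29.9 and 25.8, and Cebpa and Relb had 37.0 and 26.3. Batf3 lies beyond 140 Mb on chromosome 1, where tag density was low. The lowest were Cebpb at 16.8 and Klf4 at 10.7 RPM, and Tfec, a myeloid factor related to MITF, had no peak closer than 165593 bp. Spi1 also carried a second, weaker peak of 367 tags (22.0 RPM, 7.97-fold over input) at chr2:90921738-90925510, over an annotated start that precedes the main one.

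Of 28 genes of the DC surface and of antigen presentation, 19 were marked (67.9%, 49.3 to 82.1), against 48.6% of all genes. By CpG class these were 11 of 16 CpG-poor and 3 of 5 CpG-rich genes, against 7.74% and 79.0% of all genes of these classes. The marked members had large peaks, with a median of 144 RPM and 6285 bp. All 6 listed genes of MHC class II presentation were marked. Besides Cd74, H2-Eb1 had 194 RPM, H2-Aa 161, H2-Ab1 152 and H2-DMa, which loads peptides, 142. Ciita, the master regulator of these genes, had 172. Among adaptors and integrins, Tyrobp had 217 on its shared peak, Itgax 153, Itgam 109 and Fcer1g, the common Fc receptor gamma chain, 78.2. Sirpa, a surface receptor of the cDC2 subset, had 142 and the pan-leukocyte gene Ptprc, encoding CD45, had 144. Clec7a, encoding dectin-1, had 77.7 RPM.

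Genes that DCs induce on maturation lay at both ends of the range. Cd80 had 281 RPM on its peak shared with Adprh, and Cd86, the other CD28 ligand, had 119. Cd40 had 36.3, Cd83 had 16.4, and Ccr7, the chemokine receptor that guides mature DCs to lymph nodes, had 72 tags (4.32 RPM) at 9.25-fold, the lowest of the marked members. Unmarked were Flt3, the receptor for a DC growth factor, with the nearest peak 17725 bp away, the genes Clec9a, Xcr1, Cd8a, Ly75, Btla and Cadm1, known from cDC1 cells, and Cd209a and Cx3cr1. Cd24a, also found on cDC1 cells, was marked at 144 RPM.

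All 10 genes of the GM-CSF receptor pathway were marked (72.2 to 100%), against 48.6% of all genes, with a median of 109 RPM and 5093 bp. Of the 10, 6 have CpG-rich and 2 have CpG-poor starts. Cish, a feedback inhibitor and target of STAT5, had 257 RPM at chr9:107196427-107205251. Jak2, the kinase bound to the receptor, had 216. The beta chain genes Csf2rb and Csf2rb2 had 166 and 139, the phosphatase gene Ptpn6 134, Syk 84.6, Stat3 72.2 and the alpha chain gene Csf2ra 47.7. Jak2 and Csf2ra lie on chromosome 19. Stat5a and Stat5b, the transcription factors of the pathway, were lowest with 36.8 and 22.9. Csf2rb and Csf2rb2 are near-identical copies, and the aligner's default settings can place a read that matches both at either, so their separate values are uncertain. The same holds for MHC genes with close copies. Over the 3 lists 46 of 56 genes were marked (82.1%, 70.2 to 90.0), with a median of 127 RPM. By CpG class these were 24 of 26 CpG-rich and 13 of 18 CpG-poor genes, against 79.0% and 7.74% of all genes of these classes. The CpG-rich members were thus nearer to the share of their class than the CpG-poor members.

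**Figure D3:**
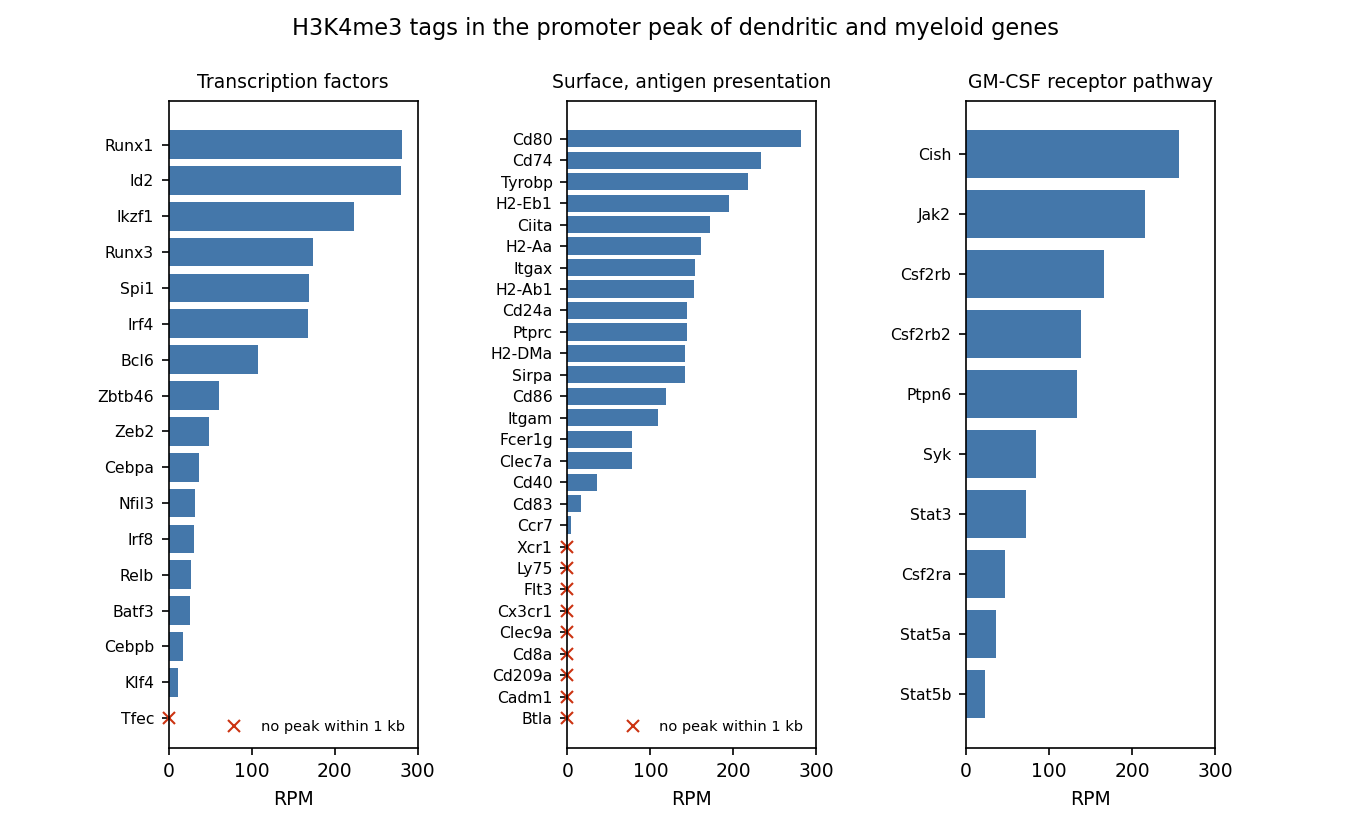
Tags (RPM) in the strongest promoter peak (horizontal axis, linear from 0) of genes of 3 lists, the transcription factors of dendritic and myeloid cells, the genes of the DC surface and antigen presentation, and the GM-CSF receptor pathway, with bars from the single library and crosses for genes without a peak within 1 kb. Runx1 and Cd80 lead their panels at 281, with the Cd80 peak shared with Adprh, and Cish leads the pathway at 257. In all, 10 genes, Tfec and 9 surface genes, carry a cross.

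Genes of other mononuclear phagocytes were marked in part. Of 15 macrophage and monocyte genes 8 were marked (53.3%, 30.1 to 75.2), near the background of all genes, but with a median of 85.9 RPM. Of the 12 with CpG-poor starts 6 were marked, against 7.74% of all CpG-poor genes. Csf1r, the receptor for the macrophage growth factor, had 136 RPM, Emr1, encoding F4/80, had 115 and Fcgr1, the high-affinity IgG receptor, had 102. Tlr4 had 95.6, Ctss, encoding cathepsin S, 76.2, Cd68, on a peak shared with Mpdu1, 71.7, Cd14 37.4 and Mertk 14.9. Unmarked were the scavenger and adhesion genes Marco, Timd4, Vcam1, Cd163 and Mrc1, the chemokine receptor gene Ccr2, and Lyz2, encoding lysozyme, whose nearest peak was 56703 bp away and which has a near-identical copy in Lyz1. Of 9 plasmacytoid DC genes 2 were marked (22.2%, 6.32 to 54.7), Bst2 with 78.0 RPM and Pacsin1 with 10.9. Siglech, Tcf4, Ly6d, Ccr9, Spib, Klk1 and Lag3 were not, and Tcf4, encoding the E protein that directs this lineage, had its nearest peak 391701 bp away.

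Genes of other blood lineages were largely unmarked, 58 of 66, and 8 (12.1%, 6.27 to 22.1) were marked with a median of 21.5 RPM. Most have CpG-poor starts, of which 5 of 41 were marked, not below the 7.74% of all CpG-poor genes. Of 10 with CpG-rich starts 2 were marked, against 79.0% of all CpG-rich genes. T cell genes with a peak were Gata3 at 124 RPM, Lck at 19.7 and Cd5, on chromosome 19, at 13.6. The Gata3 peak at chr2:9797147-9802569 covered 1 of the 2 annotated starts of the gene and was shared with 4930412O13Rik, and the Lck peak began 734 bp from a start. Vpreb1, a component of the pre-B cell receptor, had 42.9 RPM in a peak 831 bp away that is shared with Top3b. The others were Klrd1, an NK cell receptor gene, at 49.7, the erythroid factor Klf1 at 23.2, Gata2 at 7.32 and the neutrophil protease gene Prtn3 at 4.44 RPM. Genes that define the other lineages, such as Cd3e, Cd4, Cd79a, Ncr1, Mpo, Elane and Gata1, had no peak within 1 kb.

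Of 74 genes of non-haematopoietic tissues 7 were marked (9.46%, 4.66 to 18.3), with a median of 23.3 RPM. By CpG class these were 2 of 19 CpG-poor and 5 of 23 CpG-rich genes, against 7.74% and 79.0% of all genes of these classes. None of 12 fibroblast genes had a peak, which allows a share of up to 25%, and none of 10 liver genes, which allows up to 30.0%. Col1a1, Col1a2, Pdgfra and Dcn were among the unmarked fibroblast genes. Cdh1, encoding E-cadherin, had 112 RPM at chr8:109126637-109131939, and both of its starts were marked. Pax6, a factor of eye and brain development, had 109 RPM at chr2:105512261-105520134, with 11 of 21 starts marked. Pecam1, an adhesion gene of endothelium and leukocytes, had 61.3 at 1 of 6 starts on a peak shared with Gm885, and Map2, encoding a microtubule protein of neurons, had 23.3 at 4 of 15 starts. Dazl, Neurog2 and Actc1 had 8.70, 5.34 and 2.82 RPM.

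**Figure D4:**
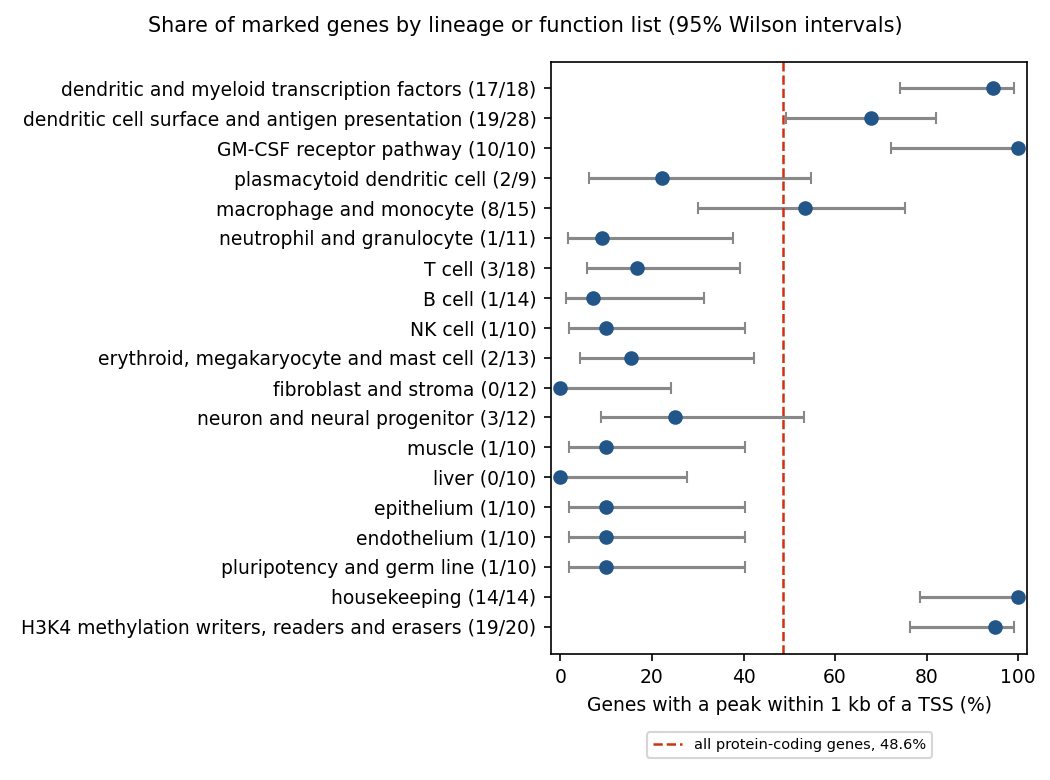
Share of genes with a peak within 1 kb of a TSS (horizontal axis, percent) for each list of lineage or function genes (vertical axis, with marked and total genes), as points with 95% Wilson intervals, and the share of all protein-coding genes, 48.6%, as a dashed line. The GM-CSF pathway and housekeeping genes lie at 100%, the transcription factors of dendritic and myeloid cells at 94.4% and the macrophage list at 53.3%, while the lists of other lineages and tissues lie at 25% or below.

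A CpG-rich start was not always marked. Among the list genes without a peak, those with the highest CpG ratios were the B cell factor Ebf1 (0.972), Ccr9 (0.927), the T cell factor Tcf7 (0.902), the neuronal gene Rbfox3 (0.885), Sox2 (0.884), Cadm1 (0.881), the mesenchymal factor Twist1 (0.871) and the NK and T cell factor Eomes (0.866). The nearest peak to Sox2 was 490394 bp away. By family, CpG-rich starts were marked for 16 of 68 genes of the Sox, Pax, Fox, Lhx and Nkx families, 4 of 26 Hox genes and 1 of 12 protocadherins, against 79.0% of all CpG-rich genes. They were marked for 132 of 184 solute carriers, 51 of 65 histone genes and 179 of 202 zinc finger genes named Zfp.

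Gene families that every cell uses were marked nearly in full. Most of their members have CpG-rich starts, and 79.0% of all CpG-rich genes were marked. Of these starts, 78 of 80 were marked for cytosolic and 72 of 72 for mitochondrial ribosomal proteins. All 76 genes of mitochondrial ribosomal proteins and all 34 aminoacyl-tRNA synthetase genes had a peak, with medians of 43.6 and 50.1 RPM. Cytosolic ribosomal protein genes were marked in 79 of 83 cases (95.2%), with a median of 60.4 RPM and 3574 bp. The exceptions were Rpl10l, Rpl39l, Rpl3l and Rps4y2. Respiratory chain and ATP synthase genes were marked in 76 of 82 cases, and the exceptions Cox8c, Cox7b2, Cox6b2, Cox6a2, Cox8b and Atp5l-ps1 include isoforms known from muscle and testis. Proteasome genes were marked in 37 of 39 cases, without the thymic subunit Psmb11 and the testis subunit Psma8. Translation initiation factor genes were marked in 55 of 58 cases. All 14 housekeeping genes had a peak, from Hprt, on X, at 25.2 to Actb, in the dense part of chromosome 5, at 281 RPM.

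Replication-dependent histone genes had a peak in 53 of 67 cases (79.1%), with a tag density of 169 tags per kb and a fold of 24.9 that were below the medians of all marked genes, 249.6 and 43.2. These genes are near-identical copies in clusters and share reads, so single values are uncertain. Genes named Zfp were marked in 261 of 367 cases (71.1%), Rab GTPases in 52 of 67 (77.6%) and solute carriers in 168 of 353 (47.6%). Families used in other tissues were at the other end. Of 1113 olfactory receptor genes, which have near-identical copies, 5 were marked (0.449%) with a median of 3.84 RPM. No vomeronasal receptor of 321, keratin of 51 or defensin of 53 was marked, which allows shares of up to 0.935%, 5.88% and 5.66%. Hox genes were marked in 5 of 39 cases (12.8%), collagens in 4 of 43 and protocadherins in 2 of 36. The Sox, Pax, Fox, Lhx and Nkx factors were marked in 18 of 92 cases (19.6%), and in 16 of the 68 with a CpG-rich start.

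Immune gene families lay between these extremes. Genes of Cd antigens were marked in 40 of 88 cases (45.5%), close to the background, with a median of 70.6 RPM and 4344.5 bp. Of the 49 with CpG-poor starts 17 were marked, against 7.74% of all CpG-poor genes. High values were found at Cd180, a Toll-like receptor homologue, with 181 RPM, Cd274, encoding PD-L1, with 169.6 on chromosome 19 and on a shared peak, Cd53 with 165 and Cd69 with 162. Of 12 Toll-like receptor genes 8 were marked. Tlr4, the receptor for lipopolysaccharide, was highest at 95.6 RPM, followed by Tlr2 at 65.2, Tlr11 at 49.9, Tlr13 at 35.3, Tlr9 at 33.9, Tlr5 at 33.5, Tlr3 at 29.4 and Tlr6 at 17.6, while Tlr1, Tlr7, Tlr8 and Tlr12 were unmarked. Of 32 C-type lectin genes 11 (34.4%) were marked, including Clec4n, Clec2d at 81.2, Clec7a, Clec5a at 76.9 and Clec4e, encoding Mincle, at 24.2 RPM.

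Cytokine and chemokine genes were below the background, with 22 of 107 marked (20.6%, 14.0 to 29.2) and a median of 24.8 RPM. Most have CpG-poor starts, of which 9 of 71 were marked, against 7.74% of all CpG-poor genes, and 5 of 7 with CpG-rich starts were marked. Tnfsf9 and Ccl2 share their peaks with another gene. The highest were the TNF superfamily genes Tnfsf8 at 152, Tnfsf9 at 150.2 and Tnf at 130.2 RPM, and Ltb, encoding lymphotoxin beta, at 103. Among chemokines Ccl6 had 80.4, Ccl2 67.2, Ccl17 26.1, Ccl4 18.1, Ccl3 10.7, Cxcl2 10.7 and Ccl22 7.5 RPM. Il15 had 46.8. No peak was called at Il2, Il6, Il10, Il12a, Il12b, Il23a, Il1a, Il1b, Il18, Ifnb1, Csf2, Ccl5, Cxcl9 or Cxcl10. Interleukin and chemokine receptor genes were marked in 23 of 60 cases (38.3%, 27.1 to 51.0), with a median of 48.3 RPM, led by Il21r at 195, Il4ra at 181, Il1r2 at 177, Il10ra at 139, Il7r at 125 and Il2ra at 109.

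**Figure D5:**
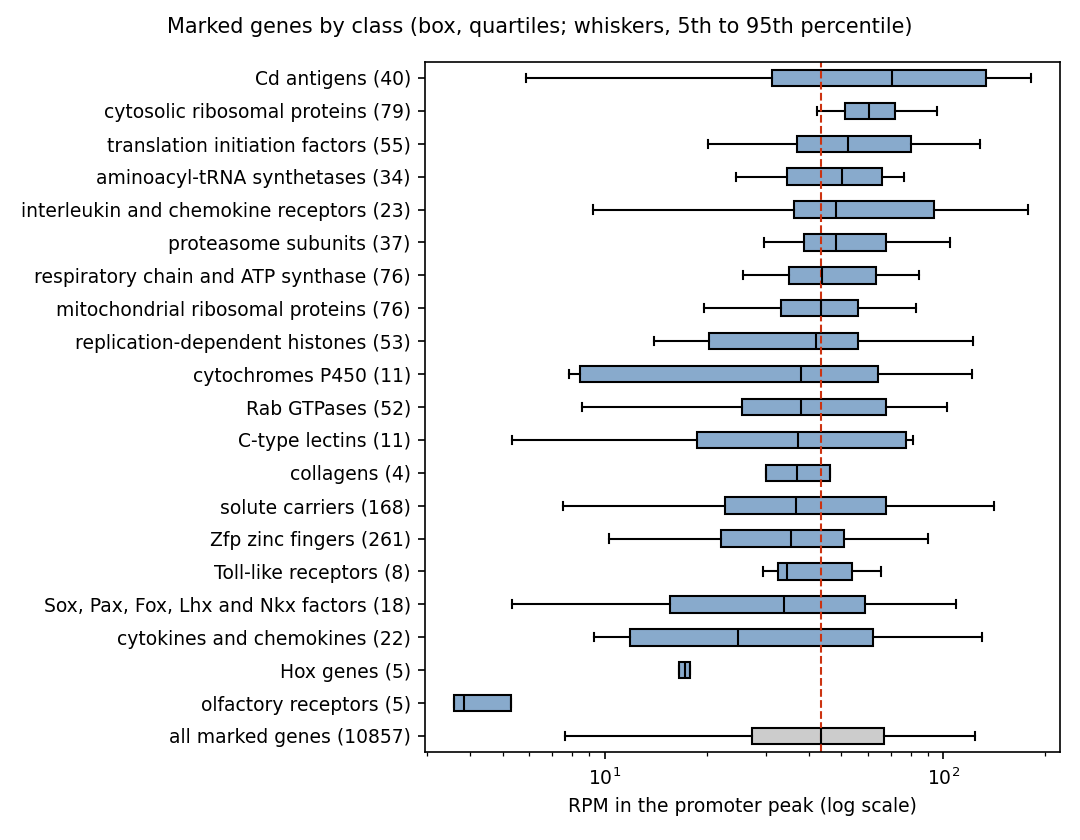
Tags (RPM) in the strongest promoter peak (horizontal axis, log scale) of the marked genes of each gene class (vertical axis, number of marked genes), with boxes from the first to the third quartile, a line at the median and whiskers from the 5th to the 95th percentile, beside all marked genes and their median of 43.6 as a dashed line. Cd antigens have the highest median, 70.6, and the 5 marked olfactory receptors the lowest, 3.84, while cytosolic ribosomal protein genes have a narrow box around 60.4.

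Genes with several promoters differed in which of them carried the mark. Starts within 500 bp of each other were joined into groups. Ciita is known to use separate promoters in DCs, B cells and interferon-treated cells, and its farthest upstream start had 172 RPM at chr16:10479319-10485842, while the groups 8.03 and 9.64 kb downstream lay under 1 peak of 84.1 RPM. Runx1 had 79.4 RPM at its distal start and 281 at the groups 129 kb downstream. Runx3 had 174 at its distal start and 31.4 at the start 31.8 kb downstream. Nfatc1 was marked at both of its starts, with 30.9 RPM at the distal one and 129.9 at the one 4.90 kb downstream. Nfatc2, encoding the factor that the study tagged, was marked only at the group 11.3 kb downstream of its distal start, with 134 RPM. Mitf was marked only at the most distal of 4 groups, at 34.9 RPM. Ikzf1 was marked at 3 of 4 groups by a single peak, which covers 2 of them and begins 824 bp from the other. Tcf4, Gata1 and Il1rn, the last encoding the interleukin-1 receptor antagonist, had no peak at any start.

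Genes for writers, readers and erasers of H3K4 methylation, not all of which act on the trimethyl form, were marked in 19 of 20 cases (95%, 76.4 to 99.1). All 20 have CpG-rich starts, and 79.0% of all CpG-rich genes were marked, a share within that interval. The marked genes had a median of 57.2 RPM. Of the genes named for the SETD1 and MLL families, Setd1b, Mll5 and Mll2 had 425, 294 and 118 RPM, with the Mll5 peak shared with 5031425E22Rik. Setd1a, Mll3 and Mll1 had 49.0, 68.6 and 35.2. Setd1b and the demethylase gene Kdm2b, with 215, lie in the dense part of chromosome 5, and their folds of 32.7 and 30.2 were below the median of 43.2. Cxxc1, the CpG-binding subunit, had 45.1, the demethylase genes Kdm5a, on a peak shared with Ccdc77, and Kdm1a had 85.2 and 20.3, and the nearest peak to Kdm5b was 2562 bp away despite a CpG ratio of 0.854.

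The promoter peak with the most tags was at Tnrc18 (chr5:143574677-143585989), with 9731 tags, 584 RPM, over 11313 bp. The dense part of chromosome 5 took 6 of the 10 highest places, and chromosome 5 took 26 and chromosome 19 took 10 of the highest 100, whereas 6.52% of the strongest peaks of all marked genes lay on chromosome 5. Outside these chromosomes the highest was Mid1 on X, at 314 RPM and a fold of 15.2, followed by Bhlhe40 at 312, Brd2, a bromodomain protein gene, at 295, Cd80 with Adprh, Runx1 and Id2. Cish came further down at 257 and Cdkn1a, the cell cycle inhibitor p21, at 250.1. Ordered by length, Stk17b led with 14138 bp (chr1:53829006-53843143, 212 RPM), followed by Zbtb7b with 13529 bp and Mid1 with 13097 bp. Cd80, with 12856 bp shared with Adprh, and Runx3, with 12686 bp, came next. Tyrobp, with 11833 bp shared with Hcst and Nfkbid, and the nuclear receptor gene Nr4a2, with 11825 bp, followed.

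Peaks away from every annotated TSS were mostly small. Of the 4213, 2375 were intergenic, 1646 lay in introns and 192 in exons, and 21.1% had a false discovery rate above 5%, against 2.07% of promoter peaks. Their sequence was poor in CpG, with a median ratio of 0.302 around the summit against 0.694 for promoter peaks. The 431 CpG-rich ones had medians of 15.1 RPM and 27.7-fold, and the 2087 CpG-poor ones 7.86 RPM and 12.6-fold. By distance to the nearest annotated TSS, 727 were under 5 kb away, 1813 from 5 to 20 kb, 1426 from 20 to 100 kb and 247 were 100 kb or more away. The nearest protein-coding gene was itself marked for 2905 of the peaks (69.0%, 67.5 to 70.3), and for 74.9% of the intronic ones. Of all protein-coding genes 48.6% were marked, but that share counts each gene once. Here a gene nearest to several peaks counts for each, as the 4213 peaks fell to 3097 genes. The median distance to the start of the nearest protein-coding gene was 21.5 kb.

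A few peaks away from a TSS were far larger than the median promoter peak. The largest, at chr13:63340249-63356286, spanned 16038 bp with 3833 tags (230.0 RPM, 62.9-fold). It lay 33.0 kb upstream of 2010111I01Rik, with its summit in an annotated exon. Others lay 9.13 kb downstream of the start of Cdkn1b, the cell cycle inhibitor p27, with 186 RPM, and 23.3 kb upstream of Zfp541, a zinc finger gene, with 187. The peak at chr17:29568061-29575740, 56.3 kb upstream of Pim1, a kinase gene induced by STAT5, had 182 RPM and 73.2-fold. The peak at chr8:86723996-86729186 had 142 RPM and 55.2-fold and lay 7.33 kb upstream of the microRNA gene Mir23a. The 200 bases around the summits of these 2 peaks are shown, on the plus strand, as examples of marked sequence without an annotated start (chr17:29571363-29571562 and chr8:86724990-86725189), with CG in capitals. They hold 9 and 8 CG.
Upstream of Pim1: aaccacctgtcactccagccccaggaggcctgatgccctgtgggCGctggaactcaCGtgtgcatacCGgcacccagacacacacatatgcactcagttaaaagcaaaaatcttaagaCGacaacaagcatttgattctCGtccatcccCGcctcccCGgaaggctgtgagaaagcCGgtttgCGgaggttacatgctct
Upstream of Mir23a: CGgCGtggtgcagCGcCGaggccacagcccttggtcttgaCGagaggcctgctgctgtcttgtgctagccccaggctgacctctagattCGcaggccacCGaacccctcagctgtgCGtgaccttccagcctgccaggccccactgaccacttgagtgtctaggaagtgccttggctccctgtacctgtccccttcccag

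DC transcription factor genes had such peaks as well, although the nearest start does not show which gene a peak belongs to. A peak away from a TSS had its nearest protein-coding start at 12 of the 18 genes of that list, 24 peaks in all, and at 22 of the 56 genes of the 3 DC and myeloid lists, against 3097 of all 22359 genes. It was 14 of 74 for non-haematopoietic genes and 11 of 66 for genes of other blood lineages. Yet it was 6 of 14 for housekeeping genes and 6 of 12 for genes with several known promoters. It was 6 of 20 for genes of H3K4 methylation and 5 of 15 for macrophage and monocyte genes, so such peaks were not particular to DC genes. Bcl6 had peaks 24.0 and 5.11 kb upstream, with 65.1 and 17.4 RPM. Id2 had peaks 92.8 and 208 kb upstream, with 28.6 and 16.8. Batf3 had a peak 17.1 kb downstream of its start with 25.1 RPM, Runx1 had 13.5 at 203 kb upstream, and Zbtb46 had 13.4 within the gene, 22.6 kb from its start. Unmarked genes could be nearest to large peaks too, as Myog with 72.9 RPM at 14.2 kb and Ebf1 with 108 at 537 kb.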

How the data were processed

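H3K4me3 ChIP and input DNA of non-treated D1 cells were sequenced once each. Per the labels and the study's methods, the authors aligned reads to mm9 with Bowtie at default settings and called peaks with MACS. The methods name another release at default settings, and the file header, used here, gives MACS 1.4.2 (p threshold 1e-05, band width 1000 bp, fragment size 251 bp, tag size 50 bp, at most 1 duplicate per position). The deposited list gives each peak's position, summit, tag count, score of -10 x log10 p (3100 or more in 4947 peaks), fold over input as a ratio, and false discovery rate in percent. Depth was read from the header.

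Here tag counts were scaled to 1000000 ChIP tags (RPM) and joined to protein-coding starts (Ensembl release 65 annotation on NCBIM37, the mm9 build) with Python 3.11.15, pandas 2.3.3, numpy 2.4.6, scipy 1.17.1 and matplotlib 3.10.9. The joins were tested on simulated data. Limits were 1 kb to a TSS, CpG ratios of 0.6 and 0.3 over 500 bp on each side of the start with the highest ratio, and, where a list had no marked gene, 3 counts as the upper limit. Sequences were read from the mm9 genome. Some list genes and sequences are not reported here, though list counts include them. The members and gene lists were chosen with earlier results of these data known, so list counts are descriptions. Of 267 list genes 266 matched, 4 by synonym. Genes named were members of the lists and classes, the 10 leading genes by peak length, by tags, among CpG-poor marked and among CpG-rich unmarked list genes, and the nearest genes of the 10 leading peaks away from a TSS. Mir23a, Cdkn1a, the 120 Mb limit on chromosome 5 and the 140 Mb limits on chromosomes 1 and 4 were chosen after their values had been seen. Gene classes were set by symbol, and the patterns for Cd antigens, cytokines and receptors were corrected after their members had been seen. Alternatives were a stricter p or false discovery rate, other distances, the summit in place of the interval, 1 TSS per gene, other CpG windows and limits, and, added after seeing the data, leaving out chromosomes 5 and 19.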

Additional observations from a re-analysis of the deposited data

How the results depend on the processing

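For 10 results 56 alternative values were computed. Each result is a single count, share or median without a direction that could reverse. Of the alternative values, 33 stayed within the counting interval or, for counts without one, within 1.5 times the value given. That wide limit includes peaks away from every TSS, which went from 4213 to 3126 with p at 1e-10 or below. They were 3322 at a false discovery rate of 5% or less and 4815 by summit. The other alternative values moved as follows. The share of genes marked was 47.8% with peaks of p at 1e-10 or below, 46% when the summit had to lie within the distance and 46.9% with 1 TSS per gene. The share of peaks at a protein-coding TSS was 74.7% with the stricter p, 73.7% at a false discovery rate of 5% or less, 68.3% at 0.5 kb, 70.8% at 2 kb, 65.8% by summit and 64.2% with 1 TSS per gene. The median promoter peak length was 2720 bp with the stricter p, 2712 bp by false discovery rate and 2659 bp without chromosomes 5 and 19, and the median RPM values were 38.4, 38.2 and 36.4. The share of CpG-rich genes marked was 78.2% with the stricter p, 76.0% by summit, 77.1% with a window of 250 bases and 82.2% with limits of 0.7 and 0.4. The share of CpG-poor genes marked was 8.70% at 2 kb, 5.81% by summit, 8.62% with 1 TSS per gene and 9.74% with the other limits. The causes were not tested.

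No paired analysis was possible because the peaks come from 1 ChIP library without replicates. The 1181 peaks with a false discovery rate above 5% and the 406 with a score under 60, whose median was 53 tags, limit what is said of weak peaks.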

Other observations

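Genes other than protein-coding ones and the chromosomes were examined after the values had been seen. Of 1273 lincRNA genes 601 (47.2%, 44.5 to 49.96) had a peak within 1 kb of a start, but many start beside a protein-coding gene, and of the 599 that lie over 2 kb from any protein-coding TSS 154 (25.7%, 22.4 to 29.4) had one. Of 1577 microRNA genes 159 (10.1%) were marked, and of the 1423 over 2 kb from a protein-coding TSS 75 (5.27%). The shares over 2 kb away were 6.58% for snoRNA genes, 2.59% for snRNA genes and 1.00% for pseudogenes, whose reads can be shared with their parent genes. On X 318 of 932 protein-coding genes (34.1%, 31.1 to 37.2) were marked, the lowest share among chromosomes with a peak, while chromosome 11 had the highest, 946 of 1653 (57.2%). Chromosomes 14 and 7 followed X with 37.4% and 40.6%. Chromosome 7 holds 394 olfactory and vomeronasal receptor genes, and without these genes the shares were 34.4% on X, 39.1% on 14, 50.1% on 7, 60.1% on 11 and 60.2% on 19.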
